A study of Homo sapiens with 6 samples.

Results

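ETS factors are transcription factors that share a DNA-binding domain, the ETS domain, which reads a GGAA core. Most cells express many of them at once, so relatives can compete for the same sites. ETS2 and its closest relative ETS1 are activated by ERK phosphorylation downstream of RAS. SPDEF, ELF3 and EHF are ETS factors of epithelia: SPDEF drives secretory and goblet cell differentiation, and ELF3 and EHF are epithelium-specific regulators of differentiation and inflammatory genes.

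The factors described here are ETS2, ETS1, SPDEF, ELF3, EHF, GABPA, ELF1, ELF4, ELK3 and ETV6. They were a named list, and each was read from the brightest array probe that carried its symbol alone. Of the 10, 9 had such a probe, among 18417 genes measured with 1 probe each. ETV6 had none, since its probe also carried INO80D. The factors were chosen by measured values of this contrast as well as by family: the list was drawn up with an earlier analysis of the same arrays known, in which ETS2, SPDEF, GABPA and ELF3 had already been reported as changed. The differences of the listed factors between the groups are therefore given as a description, without p-values, and support nothing further.

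The cells were H441, an established human lung adenocarcinoma line. Controls received scrambled siRNA and the other cells an siRNA pool against ETS2, both by lipid transfection, and total RNA was isolated 48 h later. Each group had 3 arrays, which the labels call independent transfections of this 1 cell line, and p-values measure the spread between them. Each group had a single siRNA reagent, so an effect of the reagent and an effect of losing ETS2 cannot be told apart.

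Values are RMA expression levels on the log2 scale, where RMA removes background, puts the arrays on a shared distribution and combines the readings of a transcript into 1 value. Array medians over the 18417 genes lay between 8.07 and 8.10. A background floor was taken as the 95th percentile of the mean levels of 341 olfactory receptor genes, a log2 level of 6.67. Of 13 lung epithelial markers, 11 had a group mean above it, among them SFTPB, NKX2-1, EPCAM and KRT8, while the alveolar marker SFTPC and the club cell marker SCGB1A1 had both group means below it. Above the floor were 4 of 9 leukocyte markers and 6 of 12 fibroblast and endothelial markers. The fibroblast markers COL1A1 and LUM and the endothelial receptor KDR had control means of 8.95, 9.03 and 9.80, above the floor. The leukocyte marker PTPRC had control arrays between 4.61 and 4.89, and the other endothelial markers PECAM1 and CDH5 had control means of 5.71 and 6.37, all below the floor. The mean level over the leukocyte markers was 5.95 to 5.98 on control arrays and 5.88 to 5.96 after ETS2 siRNA, and over the fibroblast and endothelial markers it was 6.89 to 6.94 and 6.86 to 6.90.

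Promoter sequences are shown for the 4 factors that passed the test across all genes, to show where the ETS core word stands before their starts. Each run is the 250 bases before a transcription start, 5′ to 3′ on the gene's strand, from RefSeq on GRCh38.p14, with GGAA on either strand in capitals (TTCC is GGAA on the opposite strand). ETS2 has 2 starts in the table, at chr21:38804933-38805182, plus strand, and chr21:38805679-38805928, plus strand. The SPDEF promoter lies at chr6:34556330-34556579, minus strand, that of ELF3 at chr1:202010337-202010586, plus strand, and that of GABPA at chr21:25734722-25734971, plus strand.
ETS2, first start: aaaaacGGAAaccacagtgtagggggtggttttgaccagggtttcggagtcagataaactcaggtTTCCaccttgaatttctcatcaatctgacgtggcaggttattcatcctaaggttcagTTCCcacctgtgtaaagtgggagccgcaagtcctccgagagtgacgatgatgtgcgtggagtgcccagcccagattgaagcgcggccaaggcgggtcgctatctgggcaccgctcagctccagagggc
ETS2, second start: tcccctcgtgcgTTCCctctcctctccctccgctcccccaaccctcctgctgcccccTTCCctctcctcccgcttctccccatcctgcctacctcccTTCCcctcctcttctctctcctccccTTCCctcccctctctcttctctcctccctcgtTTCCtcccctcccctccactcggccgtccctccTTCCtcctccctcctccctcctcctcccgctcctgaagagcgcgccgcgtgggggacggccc
SPDEF: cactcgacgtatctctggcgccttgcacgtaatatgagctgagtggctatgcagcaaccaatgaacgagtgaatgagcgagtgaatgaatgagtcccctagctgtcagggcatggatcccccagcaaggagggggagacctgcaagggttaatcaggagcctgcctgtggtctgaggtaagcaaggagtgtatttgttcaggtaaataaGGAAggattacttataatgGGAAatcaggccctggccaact
ELF3: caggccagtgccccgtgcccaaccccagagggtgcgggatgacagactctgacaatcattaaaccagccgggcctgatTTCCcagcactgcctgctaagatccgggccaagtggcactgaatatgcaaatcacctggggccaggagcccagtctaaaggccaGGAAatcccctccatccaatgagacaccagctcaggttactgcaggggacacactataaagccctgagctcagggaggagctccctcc
GABPA: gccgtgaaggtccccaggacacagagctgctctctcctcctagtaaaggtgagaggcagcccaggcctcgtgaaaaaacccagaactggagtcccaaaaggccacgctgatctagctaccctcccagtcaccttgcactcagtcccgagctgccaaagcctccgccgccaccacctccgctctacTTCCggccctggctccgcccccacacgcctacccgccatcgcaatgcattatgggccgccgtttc

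The SPDEF run held GGAA 19 and 38 bases before the start, counted from the start to the nearest base of the word, both on the gene's strand. The ELF3 run also held 2, at 85 bases on the gene's strand and at 169 bases on the opposite strand. The second ETS2 start had 6, all on the opposite strand within a stretch rich in C and T, and the first start had 3. GABPA held 1, at 62 bases on the opposite strand, and this was the only listed promoter in which it was part of the longer word CCGGAA (which contains GGAA). Of the 10 factors, 9 matched the promoter table, with 16 starts, and 14 of the 16 held GGAA (87.5%) and 1 held CCGGAA (6.25%). Among all 35116 promoters of the same length, on both strands, 92.7% held GGAA and 14.5% held CCGGAA. A match is a run of letters, and no binding was measured.

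ETS2 and SPDEF moved furthest among the listed factors, in opposite directions. ETS2 fell to 48.4% of its control level on the linear scale and SPDEF rose to 160.2%. ELF3 fell to 85.5%, and GABPA, by its brightest probe, to 82.5%. The fall of GABPA is uncertain, since its other probe differed by -0.08 with overlapping groups. Across all genes 904 of 18417 passed limma's test at an adjusted p under 0.05 (4.91%), 2.28% higher and 2.63% lower after ETS2 siRNA. Of the 9 listed factors, 4 passed, 1 higher and 3 lower. This contrast helped to choose the list, so nothing is read from that count or from the next one. The groups did not overlap for 7 of the 9, against 23.1% of all genes. All 9 had control means above the floor.

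**Figure D1:**
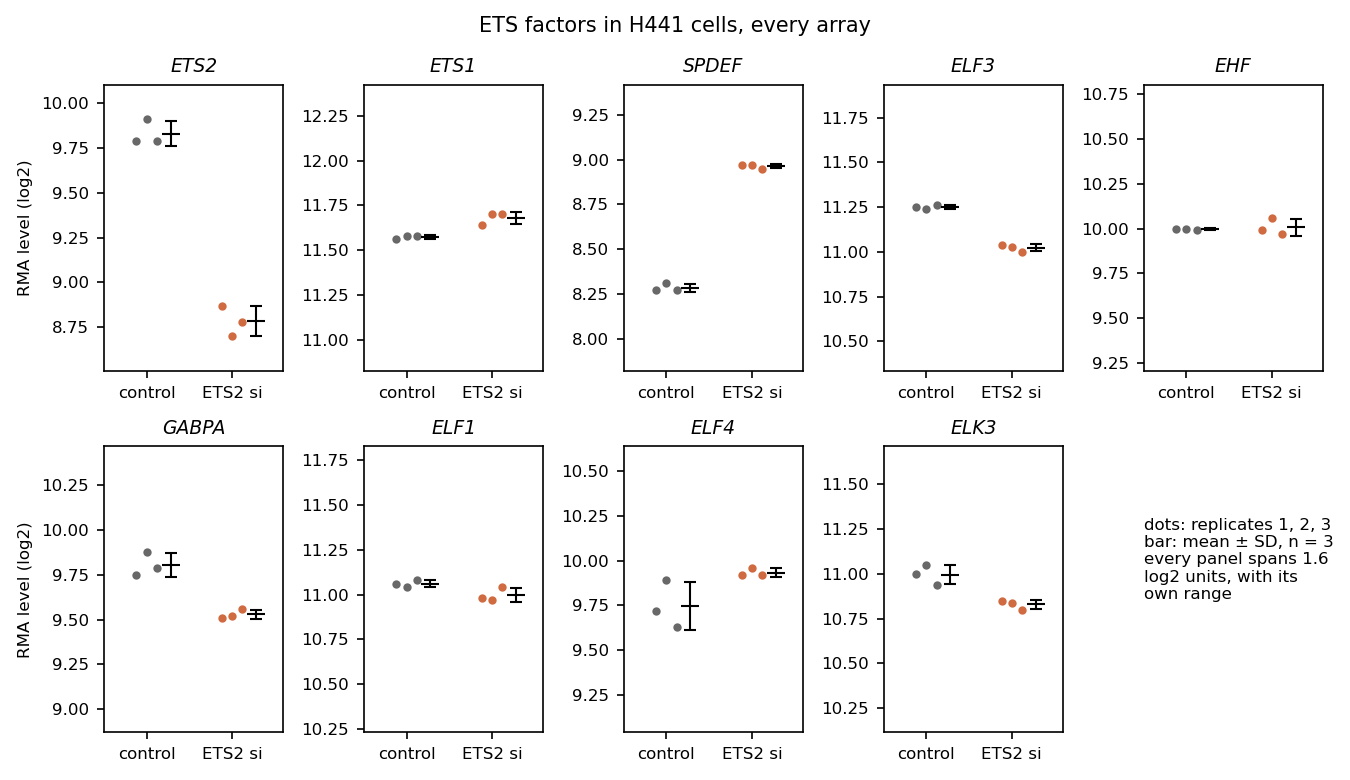
RMA level (log2) of the 9 measured ETS factors on every array, control siRNA in grey and ETS2 siRNA in orange, with the mean and SD of 3 arrays beside the dots; each panel spans 1.6 log2 units over its own range. ETS2 drops by 1.05 and SPDEF rises by 0.68 with no overlap of the groups, while EHF stays within 9.97 to 10.06.

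ETS2, the target of the siRNA, read 9.79, 9.91 and 9.79 on control replicates 1, 2 and 3, and 8.87, 8.70 and 8.78 on ETS2 siRNA replicates 1, 2 and 3. All 3 knockdown arrays lay below all control arrays, with a gap of 0.92 between the groups. The difference was -1.05 (SE 0.0565, 95% interval -1.18 to -0.92), a 2.07-fold fall. This was the largest fall among the 18417 genes, in the direction the labels give. ETS2 still read 8.78 ± 0.09 (SD, n = 3) after the siRNA, above the floor. In RNA from bulk cells, fewer expressing cells and less RNA per cell cannot be told apart, here and for every factor below.

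ETS1, the relative nearest to ETS2, read 11.56, 11.58 and 11.58 in control cells and 11.64, 11.70 and 11.70 after ETS2 siRNA. The groups were 0.06 apart, with all knockdown arrays higher. The difference of 0.11 (SE 0.0379, 95% interval 0.02 to 0.19) did not pass the test across all genes, and 22.8% of genes differed by as much or more.

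SPDEF, the secretory epithelial factor, read 8.27, 8.31 and 8.27 in control cells and 8.97, 8.97 and 8.95 after ETS2 siRNA. The groups were 0.64 apart, beside within-group SDs of 0.02 and 0.01. The difference was 0.68 (SE 0.0365, 95% interval 0.60 to 0.76), a 1.6-fold rise, and it ranked number 7 among rises over all 18417 genes. Leaving out any array kept it between 0.67 and 0.69.

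ELF3, the epithelial factor also called ESE-1, read 11.25, 11.24 and 11.26 in control cells and 11.04, 11.03 and 11.00 after ETS2 siRNA. Every knockdown array was lower, by a gap of 0.20. The difference was -0.23 (SE 0.0362, 95% interval -0.31 to -0.14). It no longer passed the test without control replicate 3 (-0.22), ETS2 siRNA replicate 2 (-0.23) or ETS2 siRNA replicate 3 (-0.22), although its size hardly moved.

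EHF, the third epithelial factor and a close relative of ELF3, read 10, 10 and 9.99 in control cells and 9.99, 10.06 and 9.97 after ETS2 siRNA. The groups overlapped. The difference of 0.01 (SE 0.0399) had a 95% interval from -0.08 to 0.10.

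GABPA is the DNA-binding subunit of GABP, which pairs with GABPB1 and is known for driving nuclear genes of mitochondrial function. Its brightest probe, 8133030, read 9.75, 9.88 and 9.79 in control cells and 9.51, 9.52 and 9.56 after ETS2 siRNA. The groups were 0.19 apart and the difference was -0.28 (SE 0.0454, 95% interval -0.38 to -0.17). It no longer passed without control replicate 3 (-0.29), ETS2 siRNA replicate 1 (-0.27), replicate 2 (-0.27) or replicate 3 (-0.29).

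The other GABPA probe, 8068039, did not enter the choice of factors and was tested among all 33297 probes, of which 1.2% passed. It read 8.66, 8.68 and 8.68 in control cells and 8.68, 8.53 and 8.57 after ETS2 siRNA. The groups overlapped, since ETS2 siRNA replicate 1 stood at the control level. The difference of -0.08 (95% interval -0.20 to 0.04) did not pass (limma adjusted p = 0.571). Its interval and that of the brighter probe in the same fit (-0.39 to -0.16) overlap. Such overlap does not show that the probes agree, and whether they differ was not tested. In the fit over all probes the brighter probe did not pass either.

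The probes of GABPA also differ in where their numbers fall on the array's list. Of the 10 named probes numbered nearest to 8068039, all 10 belong to genes of chromosome 21, where GABPA lies. Of the 10 nearest to 8133030, 0 belong to chromosome 21 and 10 to chromosome 7, for which RefSeq lists the pseudogene GABPAP. Every probe used for the other 8 factors had all 10 neighbours on its gene's chromosome, and 221 of 19433 named probes (1.14%) had none there. Which copy each GABPA probe reads was not tested, so the fall reported for GABPA is uncertain.

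**Figure D2:**
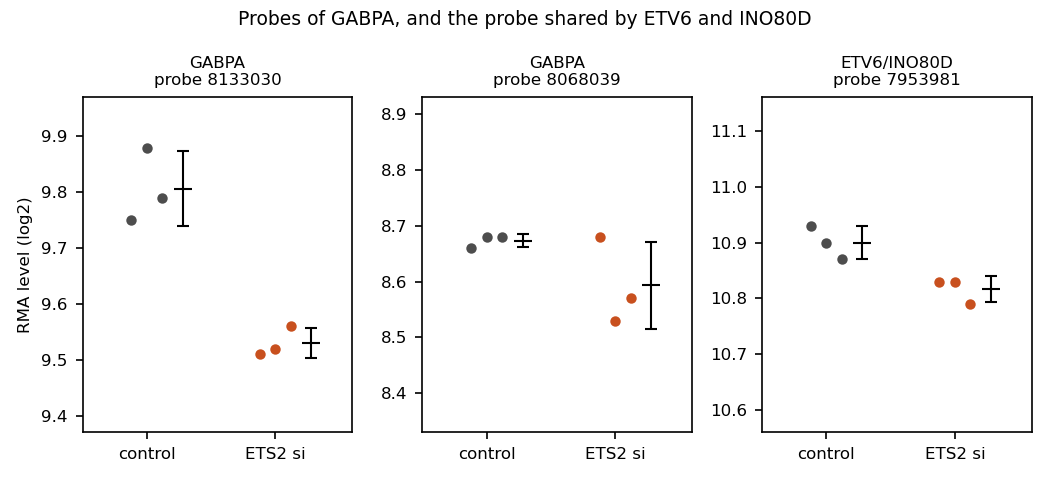
RMA level (log2) on every array of the GABPA probes and of the probe shared by ETV6 and INO80D, control siRNA in grey and ETS2 siRNA in orange, with the mean and SD of 3 arrays; each panel spans 0.6 log2 units over its own range. Probe 8133030 differs by -0.28 with separate groups, probe 8068039 by -0.08 with overlapping groups.

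ELF1 and ELF4 are related factors best known from lymphoid cells. ELF1 read 11.06, 11.04 and 11.08 in control cells and 10.98, 10.97 and 11.04 after ETS2 siRNA, groups that met at 11.04. Its difference was -0.06 (SE 0.0390, 95% interval -0.15 to 0.03).

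ELF4 had the widest spread of the 9 factors. It read 9.72, 9.89 and 9.63 in control cells and 9.92, 9.96 and 9.92 after ETS2 siRNA, with a gap of 0.03 between the groups. The difference of 0.19 (SE 0.0646, 95% interval 0.04 to 0.34) did not pass the test across all genes. Without control replicate 2 it was 0.26 and passed, and without control replicate 3 it was 0.13 and did not. Control replicate 2 was the highest of the control arrays for 5 of the 9 factors, as it was for 38.9% of all genes.

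ELK3, a partner of serum response factor that represses until ERK signalling switches it to an activator, read 11.00, 11.05 and 10.94 in control cells and 10.85, 10.84 and 10.80 after ETS2 siRNA. All knockdown arrays were lower, by a gap of 0.09. The difference of -0.17 (SE 0.0428, 95% interval -0.27 to -0.07) did not pass the test across all genes.

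ETV6, a repressor of the family, has no value of its own. The probe that carries ETV6 and INO80D together read 10.93, 10.90 and 10.87 in control cells and 10.83, 10.83 and 10.79 after ETS2 siRNA, a difference of -0.08 (95% interval -0.17 to 0.01). It is assigned to neither gene. INO80D also has a probe of its own, which differed by -0.01.

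Replicate spread was small for the listed factors, with a median within-group SD of 0.034 log2 units against 0.062 over all genes. It ran from 0.016 for ELF3 to 0.095 for ELF4. The median absolute difference was 0.187 over the 9 factors and 0.053 over all genes. The median signed difference was -0.0633, with 4 positive and 5 negative, against 0.0033 over all genes. The list was drawn up with this contrast known, so nothing is read from these comparisons with all genes.

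**Figure D3:**
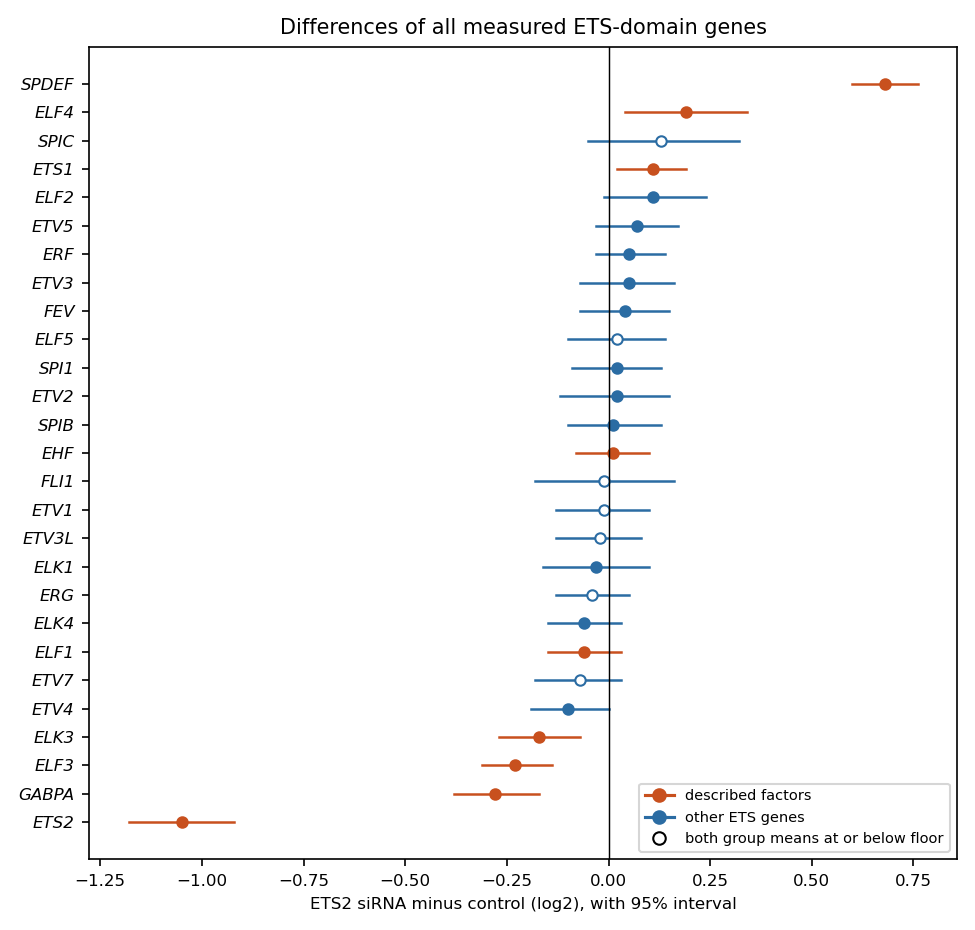
ETS2 siRNA minus control (log2) with the 95% interval for 27 ETS-domain genes, the 9 listed factors in orange and the other 18 in blue; open circles mark genes with both group means at or below the background floor. The 18 other genes lie between -0.10 and 0.13, inside the range of the listed factors from -1.05 to 0.68. The listed factors were chosen with this contrast known.

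The family was split into listed and other genes with this contrast known, so nothing is read from the counts of calls and of separate groups here. The other 18 ETS-domain genes had 0 calls by limma, higher or lower, and 1 at an unadjusted p under 0.05, against 18.5% of all genes. Their differences ran from -0.10 to 0.13, with a median of 0.0150. The groups were separate for 3 of the 18, against 23.1% of all genes. ETV4, of the PEA3 group that responds to receptor tyrosine kinases, stood at -0.10 (SE 0.0411, adjusted p = 0.258), with control arrays at 9.47, 9.52 and 9.52 and knockdown arrays at 9.41, 9.45 and 9.36. ELF2, a relative of ELF1, stood at 0.11 (SE 0.0529, adjusted p = 0.309). Of the 18, 7 had both group means below the floor, among them the endothelial and blood factors ERG and FLI1 and the epithelial factor ELF5. The leukocyte factors SPI1 and SPIB had control means of 7.54 and 7.09, above it.

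Some of these genes lie side by side in the genome. By gene order in RefSeq, the protein-coding neighbour of ETS2 is ERG, that of ETS1 is FLI1 and that of EHF is ELF5. In all 3 pairs the listed factor was above the floor and its neighbour below it, with control means of 5.56 for ERG, 5.45 for FLI1 and 5.97 for ELF5. The other neighbour of ETS2, the proteasome assembly gene PSMG1, differed by 0.07 (95% interval -0.04 to 0.18). Beside GABPA, the ATP synthase subunit gene ATP5PF differed by -0.10 (SE 0.0407, adjusted p = 0.252). Its other neighbour APP, the amyloid precursor gene, differed by -0.03. PACSIN1 and ILRUN beside SPDEF differed by -0.05 and -0.0033, and RNPEP and GPR37L1 beside ELF3 by -0.07 and -0.14. None of PSMG1, ATP5PF, APP, PACSIN1, ILRUN, RNPEP and GPR37L1 passed the test (limma, adjusted p from 0.212 to 0.982). SLC25A15, a mitochondrial ornithine carrier gene beside ELF1, had the widest difference of all the measured neighbours at 0.24 (SE 0.0614, adjusted p = 0.0705), with separate groups, and did not pass. The remaining measured neighbours of ETS1, EHF, ELF1, ELF4 and ELK3 (KIRREL3, APIP, WBP4, BCORL1, RAB33A, LTA4H and CDK17) lay between -0.06 and 0.10 and did not pass either (limma, adjusted p from 0.492 to 0.871). These neighbours were chosen after the values had been seen.

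By profile over the 6 arrays, the genes most like ETS2 were PGM2L1, ACY1, THAP12, HSPA13 and RDX. Likeness was the root mean square difference over the 6 arrays between profiles centred on their own means. The search covered 12499 genes with a group mean above the floor. It left out the listed factors, pseudogenes, and small RNA, LOC, LINC, antisense, intronic transcript and open reading frame symbols. Likeness was 0.138 for PGM2L1, an enzyme that makes glucose 1,6-bisphosphate, and 0.200 for RDX, which encodes radixin. All 5 had separate groups and differences from -0.80 to -0.67, smaller than that of ETS2. For SPDEF the nearest was SERPINB5, the serpin maspin, at 0.0170, with control arrays at 6.90, 6.94 and 6.94 and knockdown arrays at 7.61, 7.64 and 7.59. CAP2, SH3D19, ANTXR2 and SEMA7A followed at 0.0509 to 0.0637, with differences from 0.57 to 0.63. These are descriptions of 6 arrays in 2 groups. Nearness to ETS2 or SPDEF picks genes with large differences in the same direction, so their differences and separate groups are not a further result.

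Genes that act with the ETS factors were examined next, from lists written with earlier results of these data known. Nothing is therefore read from the counts of genes that passed in these lists, here or below. Of 23 measured partners and regulators of ETS proteins, 1 rose and 1 fell, against 2.28% and 2.63% of all genes. By limma, 5 had an unadjusted p under 0.05, near the share of 18.5% over all genes. FOSL1, an AP-1 subunit that cooperates with ETS factors, rose by 0.18 (SE 0.0367, adjusted p = 0.0318), with control arrays at 11.85, 11.81 and 11.85 and knockdown arrays at 12.02, 12.03 and 12. HDAC3, a deacetylase of corepressor complexes, fell by 0.17 (SE 0.0391, adjusted p = 0.0488). Neither passed with any 1 of the 6 arrays left out, with differences from 0.17 to 0.19 for FOSL1 and from -0.19 to -0.15 for HDAC3. GABPB1, the partner subunit of GABPA, stood at 0.08 (95% interval -0.01 to 0.18). CDK10 and CCNQ, the kinase and cyclin that mark ETS2 for degradation, stood at 0.04 (-0.06 to 0.15) and 0.18 (0.02 to 0.33). The kinase gene MAPK3, which encodes ERK1, stood at -0.10 (-0.19 to -0.01). None of GABPB1, CDK10, CCNQ and MAPK3 passed limma's test across all genes.

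**Figure D4:**
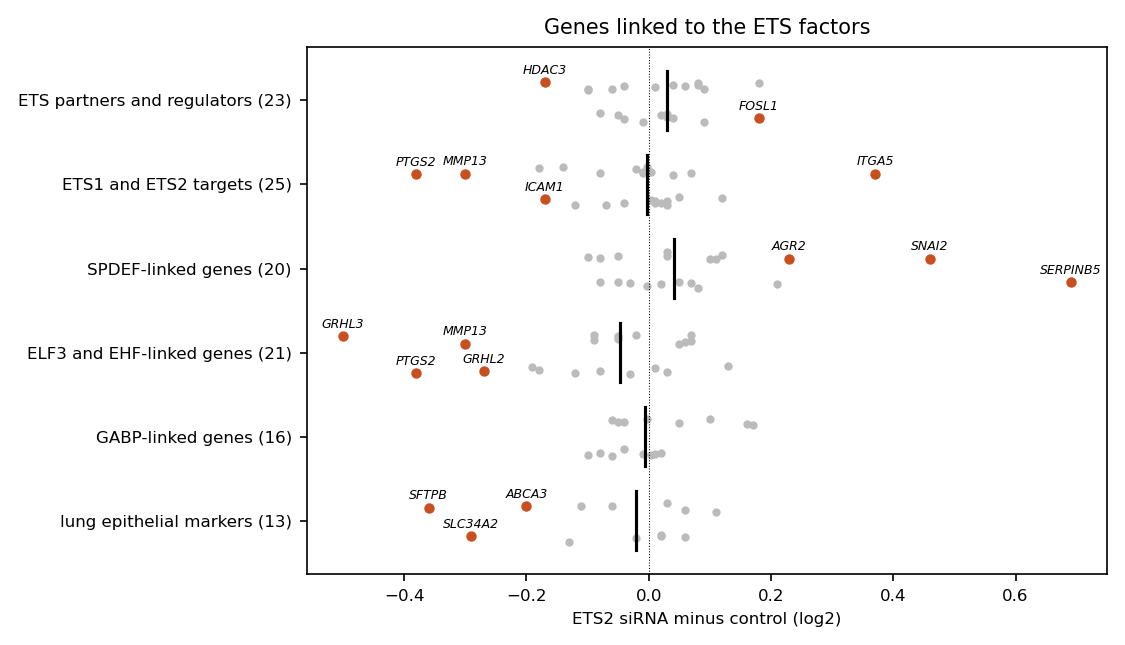
ETS2 siRNA minus control (log2) for each measured gene of 6 lists, with the number measured in brackets; orange dots passed limma's test and are named, grey dots did not, and the black line is the list's median. The 3 SPDEF-linked genes that passed lie to the right, at 0.23 to 0.69, and include SNAI2, which is described as repressed by SPDEF. The 4 ELF3 and EHF-linked genes that passed lie to the left, at -0.50 to -0.27. Of these, PTGS2 and MMP13 are also in the list of ETS1 and ETS2 targets. The lists were written with earlier results of these data known, and most of these calls depend on single arrays.

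Among 25 measured genes widely described as ETS1 or ETS2 targets, 1 rose and 3 fell, against 2.28% and 2.63% of all genes (limma). At an unadjusted p under 0.05 by limma there were 5, near the share of 18.5% over all genes. The median was -0.0033 against 0.0033 over all genes. PTGS2, the inducible cyclooxygenase, fell by 0.38 (SE 0.0807, adjusted p = 0.0382), MMP13, collagenase 3, by 0.30 (SE 0.0536, adjusted p = 0.0196) and the adhesion molecule ICAM1 by 0.17 (SE 0.0359, adjusted p = 0.0391). ITGA5, the fibronectin receptor subunit, rose by 0.37 (SE 0.0684, adjusted p = 0.0220). The urokinase gene PLAU and the cell cycle genes CCND1 and MYC stood at 0.05 (95% interval -0.03 to 0.14), 0.0033 (-0.09 to 0.10) and -0.0033 (-0.10 to 0.09). The stromelysin MMP3 and the collagenase MMP1 were below the floor in both groups. The 4 calls fell to 1 without control replicate 1, 2 without control replicate 2, 0 without control replicate 3, 1 without ETS2 siRNA replicate 1 and 0 without replicate 2 or replicate 3 of that group.

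Of 20 measured genes described as SPDEF dependent, 3 rose and 0 fell, against 2.28% and 2.63% of all genes (limma). At an unadjusted p under 0.05 there were 6, against 18.5%, and the median was 0.0417. Earlier results of these data were known when the list was written, so nothing is read from these counts. SERPINB5, described as induced by SPDEF, rose by 0.69 (SE 0.0376, adjusted p = 0.000254). It is the gene named above as nearest to SPDEF in profile, so its rise is not a further result. AGR2, a disulfide isomerase of mucus-secreting cells, rose by 0.23 (SE 0.0374, adjusted p = 0.0138), with control arrays at 8.95, 8.95 and 8.94 and knockdown arrays at 9.19, 9.20 and 9.14. SNAI2, an EMT factor described as repressed by SPDEF, rose by 0.46 (SE 0.0380, adjusted p = 0.000981). The list therefore joins genes reported to go in both directions. The goblet cell genes MUC5B (-0.05, 95% interval -0.21 to 0.10), FOXA3 (0.12, -0.01 to 0.25) and CREB3L1 (0.21, 0.06 to 0.36) did not pass, and CLCA1, SPINK4 and AGR3 were below the floor. AGR2 no longer passed without control replicate 3 or any 1 of the ETS2 siRNA arrays, at 0.22 to 0.25.

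Of 21 measured epithelial and inflammatory genes listed with ELF3 and EHF, 0 rose and 4 fell, against 2.28% and 2.63% of all genes (limma). At an unadjusted p under 0.05 there were 7, against 18.5%, and the median was -0.0467. This list too was written with earlier results of these data known, so nothing is read from its counts. GRHL3, a grainyhead factor of epithelial barriers, fell by 0.50 (SE 0.0484, adjusted p = 0.00182), with control arrays at 8.43, 8.59 and 8.50 and knockdown arrays at 8.03, 8.01 and 7.99. Its relative GRHL2, which maintains epithelial junctions, fell by 0.27 (SE 0.0419, adjusted p = 0.0120). PTGS2 and MMP13, shared with the list of ETS1 and ETS2 targets, were the other 2. The cytokeratins KRT8 and KRT18 stood at 0.03 (95% interval -0.06 to 0.12) and -0.02 (-0.10 to 0.06), and the junction genes CDH1 and CLDN7 at 0.06 (-0.02 to 0.15) and -0.09 (-0.18 to -0.00). The 4 calls became 2 without control replicate 3 and 1 without ETS2 siRNA replicate 2 or replicate 3.

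Of 16 measured GABP-linked genes, 0 passed limma's test in either direction and 3 had an unadjusted p under 0.05, near the share of 18.5% over all genes, with a median of -0.0067. TFB1M and MRPS12, genes of mitochondrial ribosome function, stood at 0.17 (SE 0.0458, adjusted p = 0.0869) and 0.16 (SE 0.0451, adjusted p = 0.0882), both higher on every knockdown array. At most 2 genes of the list passed in any alternative, with genes above the floor alone, with an intensity trend or with array weights. The respiratory chain genes COX4I1 and COX5B stood at -0.0033 (95% interval -0.09 to 0.08) and -0.10 (-0.21 to 0.01).

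Of 13 measured markers of lung epithelium, 0 rose and 3 fell, against 2.28% and 2.63% of all genes (limma). At an unadjusted p under 0.05 by limma there were 6, against 18.5% of all genes. The marker lists were also written with earlier results of these data known, so nothing is read from their counts. There were 6 positive and 7 negative differences, with a median of -0.0200. The part of these 3 markers in the results above was not tested. They were SFTPB, surfactant protein B, which fell by 0.36 (SE 0.0491, adjusted p = 0.00770), the phosphate transporter SLC34A2 by 0.29 (SE 0.0445, adjusted p = 0.0120) and the lipid transporter ABCA3 by 0.20 (SE 0.0446, adjusted p = 0.0441). The mean level over the 13 was 10.78 to 10.82 on control arrays and 10.72 to 10.77 after ETS2 siRNA. The lineage factor NKX2-1 stood at -0.11 (95% interval -0.20 to -0.01). ABCA3 did not pass with any 1 of the 6 arrays left out (-0.23 to -0.17), and SLC34A2 did not without control replicate 3, ETS2 siRNA replicate 2 or ETS2 siRNA replicate 3 (-0.29 to -0.26). SFTPB passed in all 6. Of 9 leukocyte markers and 12 fibroblast and endothelial markers, 0 passed, with 2 in each list at an unadjusted p under 0.05 by limma, the threshold that 18.5% of all genes met. Those with the smallest p were ITGAM at -0.16 (adjusted p = 0.122), NKG7 at 0.13 (0.153), KDR at -0.18 (0.0850) and TEK at -0.15 (0.234). KDR passed under 3 alternatives, with quantile normalisation again, with genes above the floor alone and with an intensity trend.

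The GGAA core and the longer word CCGGAA were also counted in the promoters of all genes that passed the test, in the same 250-base window on both strands. GGAA was in 93.6% of 533 promoters of genes higher after ETS2 siRNA and in 91.7% of 614 promoters of genes lower, against 92.6% of 20109 promoters of measured genes. CCGGAA was in 21.4%, 16.4% and 18.1%. These are descriptions, and genes with several starts count more than once.

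**Figure D5:**
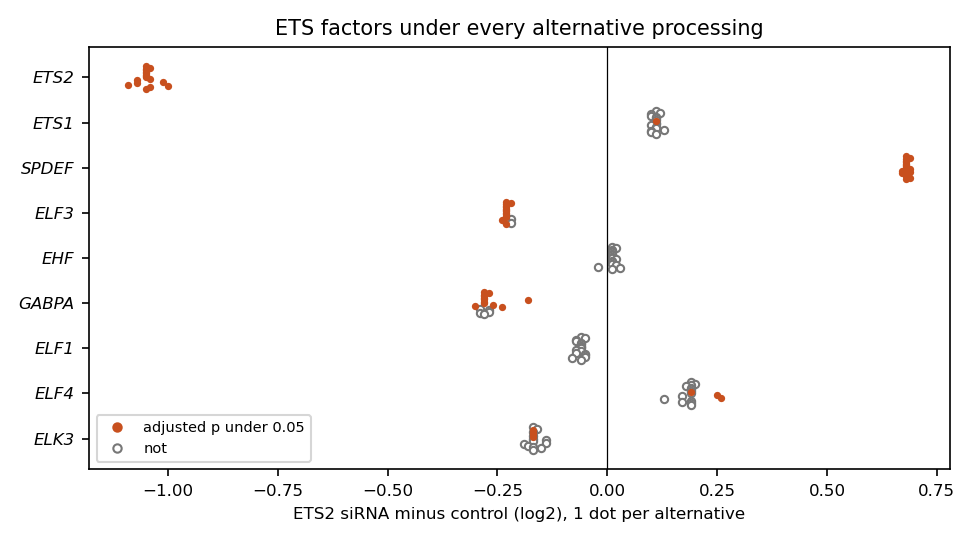
ETS2 siRNA minus control (log2) of the 9 measured ETS factors under each of 17 alternative ways of processing, 1 dot per alternative, orange where the adjusted p was under 0.05 and open where it was not. ETS2 (-1.09 to -1.0) and SPDEF (0.67 to 0.69) are orange in all 17; GABPA reaches -0.18 when its probes are averaged.

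Under 17 alternative ways of processing, ETS2 and SPDEF passed the test in 17, ELF3 in 14 and GABPA in 12. ELK3 passed in 4, ELF4 in 3, ETS1 in 1 and ELF1 and EHF in 0. Averaging the probes of GABPA brought its difference from -0.28 to -0.18. The sign of ETS2, ETS1, SPDEF, ELF3, GABPA, ELF1, ELF4 and ELK3 was the same in all 17, and that of EHF was not. The alternatives reuse the arrays that helped to choose the factors, so these counts describe dependence on processing and are no further support.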

How the data were processed

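RNA from 6 cultures was read on a human gene array. Per the submitters' processing notes the authors ran RMA, and they deposited its log2 values for every array. The version, settings and annotation of RMA were not given in the sources used here. RMA shrinks folds of weakly expressed genes. Precision is limited by how few arrays there are.

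Of 33297 probes, 19460 carry 1 gene symbol in the platform annotation, 1754 several, and 12083 were unnamed here. Gene identifiers of 19429 matched RefSeq records (GRCh38.p14), with 0 symbols changed. The brightest probe stood for a gene. Groups were compared with limma 3.58.1 (lmFit, eBayes) in R 4.3.3, two-sided, Benjamini-Hochberg adjusted over 18417 genes. Differences are ETS2 siRNA minus control. Levels carry SDs and differences carry limma's moderated SE and 95% interval. An exact permutation of 3 against 3 arrays cannot go below 0.1. The procedure was tested on simulated data.

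The members and lists were chosen with earlier results of these data known. Named were every member and its probes, per list up to 4 changed genes with the largest change or the 2 smallest p-values, and the 5 genes nearest in profile to ETS2 and to SPDEF. Further genes named were chosen after their values were seen. Alternatives were the replicate block, 3 rescalings, 2 filters, 2 probe rules, 2 variance models, array weights and each array left out. Replicate numbers were not taken to pair the arrays.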

Additional observations from a re-analysis of the deposited data

How the results depend on the processing

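With the replicate number as a block, 604 genes passed against 904, the listed factors kept 4 calls, and genes of the ETS-linked lists (the other ETS genes, partners and targets, without the listed factors) had 7 against 11; same-numbered arrays' deviations correlated at 0.18, 0.18 and 0.04, so the numbers were not taken as pairs. Each same-numbered pair still correlated better than the other pairings of either array for numbers 1 and 2; for number 3 it did not. All genes passing numbered 1397 with genes above the floor alone, 1963 with an intensity trend, 1480 with array weights and 322 with all probes tested on their own. The intensity trend gave 7 listed factors and 17 list genes, and all probes tested on their own gave 5 list genes. Leaving out single arrays gave 213 (ETS2 siRNA replicate 3 removed) to 735 (control replicate 2 removed) changed genes, 2 to 5 listed factors and 3 to 8 list genes. The other changed-gene counts were 421 and 356 with control replicate 1 or 3 removed, and 377 and 278 with ETS2 siRNA replicate 1 or 2 removed. The cause of these shifts was not tested, beyond the smaller number of arrays. No named gene that passed turned its sign under any of the 17 alternatives. The difference of ETS2 stayed between -1.09 and -1.0. Rescaling the arrays took the median difference of all genes from 0.0033 to between 0.0004 and 0.0133.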
